A study of Mus musculus with 12 samples.

Results

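The circadian clock genes described here are *Arntl*, *Clock*, *Npas2*, *Per1*, *Per2*, *Per3*, *Nr1d1*, *Nr1d2*, *Dbp* and *Nfil3*, 10 of the 39017 genes counted by RNA sequencing of whole mouse adrenals. They were taken by gene name from known members of the molecular clock, not by how they behaved, although earlier results of the same data were known when they were chosen. Each name matched 1 gene, and all 10 passed the filter on low counts. The study asked how β-catenin shapes the zona glomerulosa (zG), the outer cortical layer whose cells make aldosterone. It sequenced adrenals of 6 control mice (Ctrl) and 6 mice with constitutively stabilised β-catenin (βCat-GOF). Controls carried 1 AS Cre allele (AS Cre/+), in which Cre recombinase is expressed from the aldosterone synthase locus and hence in zG cells. βCat-GOF mice carried the same allele together with Ctnnb1 fl(ex3)/+, whose recombination deletes exon 3 of 1 copy of the β-catenin gene and protects the protein from degradation. Cells that never expressed aldosterone synthase keep the intact gene, so a βCat-GOF gland is a mixture of recombined and other cells. All mice were females of 10 to 11 weeks on a mixed sv129-C57Bl/6 background, kept under 12 h of light and 12 h of dark. The hour at which the glands were collected is not given in the sources used here.

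The clock is a feedback loop that most cells run with a period of about a day. ARNTL pairs with CLOCK or with its relative NPAS2 and switches on genes that carry an E-box in their regulatory DNA, among them the *Per* and *Cry* genes, *Nr1d1*, *Nr1d2* and *Dbp*. PER and CRY proteins then inhibit ARNTL and its partner, which closes the loop. NR1D1 and NR1D2 (REV-ERBα and REV-ERBβ) are nuclear receptors that repress *Arntl*, *Npas2* and *Nfil3* through a site called RORE. DBP and NFIL3 compete for a further site, the D-box, as activator and repressor. *Arntl*, *Npas2* and *Nfil3* therefore peak in the opposite part of the day from *Dbp*, *Nr1d1* and *Per3*. In the adrenal, a clock of this kind accompanies the daily rhythm of glucocorticoid release, and *Per1* in addition is induced quickly through cAMP.

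The promoters of the genes were searched for the letters of the control elements through which the loop runs. RefSeq promoters (build GRCm38.p6) were available for 9 of the 10 genes, with 13 start sites, and the 250 bases before each start were searched on both strands. The letters searched were CACGTG (E-box), CACGTT (the E′-box variant), TTATGTAA (D-box), TAGGTCA (RORE core) and TGACGTCA (CRE, the site of cAMP-responsive factors), none of which overlapped another here. An E-box was found in 1 member (*Per1*), an E′-box in 1 (*Nr1d1*), D-boxes in 1 (*Per3*) and a RORE core in 1 (*Nfil3*). No element was found in these windows for *Arntl*, *Clock*, *Npas2*, *Nr1d2* or *Dbp*. Those counts are of genes, the shares that follow are of promoters, and enrichment was not tested. Of 32851 promoters, 6.02% hold the E-box, 3.85% the E′-box, 0.819% the D-box, 2.23% the RORE core and 1.55% the CRE, which no member held in these windows. The *Per3* window is shown whole because it holds 2 copies of the rarest element, in capitals, 205 to 198 and 158 to 151 bases before the start. It is the minus strand of chr4:151044666-151044915, where the annotation also places the gene *Camta1* and no exon.
Per3: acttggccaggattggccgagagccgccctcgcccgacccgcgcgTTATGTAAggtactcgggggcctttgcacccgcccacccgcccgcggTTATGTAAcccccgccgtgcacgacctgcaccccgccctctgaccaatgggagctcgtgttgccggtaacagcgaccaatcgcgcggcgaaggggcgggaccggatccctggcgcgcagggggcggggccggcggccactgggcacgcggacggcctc

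*Tef* and *Bhlhe41*, clock genes that were lower in mice with a higher *Arntl* to *Dbp* ratio (correlations of -0.813 and -0.834 over 12 mice, as a description), were chosen with their values in view. Of 12 other clock genes with a promoter, 4 held an E-box, namely *Tef* (also at a further start), *Bhlhe41*, *Ciart* and *Cry1*. The correlation of *Cry1* was 0.463, and *Hlf*, at -0.862, held no E-box. For *Per1*, *Nr1d1*, *Nfil3*, *Tef* and *Bhlhe41*, 30 bases around the element are given 5′ to 3′ on the strand of the gene, with the element in capitals. They lie at chr11:69098771-69098800 (plus strand, *Per1*), chr11:98775388-98775417 (minus, *Nr1d1*), chr13:52981040-52981069 (minus, *Nfil3*), chr15:81811264-81811293 (plus, *Tef*) and chr6:145865556-145865585 (minus, *Bhlhe41*). The *Nfil3* and *Bhlhe41* stretches overlap an exon of the same gene in GENCODE M21, the *Per1* and *Tef* stretches lie inside the gene upstream of a later start, and that of *Nr1d1* overlaps no gene. The *Nfil3* and *Nr1d1* elements read in reverse complement.
Per1: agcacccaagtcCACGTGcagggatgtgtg
Nr1d1: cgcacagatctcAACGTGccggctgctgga
Nfil3: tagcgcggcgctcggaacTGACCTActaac
Tef: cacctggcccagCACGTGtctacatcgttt
Bhlhe41: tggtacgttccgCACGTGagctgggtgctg
A match of this kind describes the letters in the window and is not evidence that the site was bound in these glands.

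The libraries held between 13484675 and 25625494 counts, and the cortical markers *Nr5a1*, *Star* and *Cyp11a1* were abundant in each. Of 5 zG markers, 3 passed the test (*Dab2*, *Agtr1b* and *Vsnl1*), all higher in βCat-GOF adrenals, where 3.68% of all genes passed. The other zG markers, *Cyp11b2* and *Hsd3b6*, did not, with log2 fold changes of -0.18 and 0.155 (edgeR adjusted p = 0.820 and 0.912). Counts per gene cannot show the deleted exon. Kidney markers were at or near 0 throughout. The liver gene *Alb* reached 1202 normalized counts in the βCat-GOF mouse 1369-8 and at most 2.1 in a control, and the part of this in the clock genes of that mouse was not tested. In whole glands, fewer cells of a type and less RNA per cell cannot be told apart.

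None of the 10 clock genes passed an adjusted p of 0.05 between the groups (edgeR's quasi-likelihood test, Benjamini-Hochberg over 14953 genes), against 3.68% of all genes tested. DESeq2 also called 0 of the 9 members to which it gave an adjusted p (none was given for *Npas2*), with 7.46% of genes called overall. At an unadjusted p under 0.05 edgeR had 3 of 10 (*Arntl*, *Npas2* and *Nfil3*, all higher in βCat-GOF), where 20.4% of all genes reached that level. With the cut-offs of the study, a fold change above 1.4 and a base mean above 100 beside the adjusted p, 0 of 10 passed (2.35% of all genes), and in 0 of 10 did the 2 groups not overlap (2.78% of all genes). The log2 fold change was above 0 for 6 members and below 0 for 4, with a median of 0.30 (0.00011 over all genes). In absolute size the median was 0.54, against 0.16 over all genes.

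**Figure D1:**
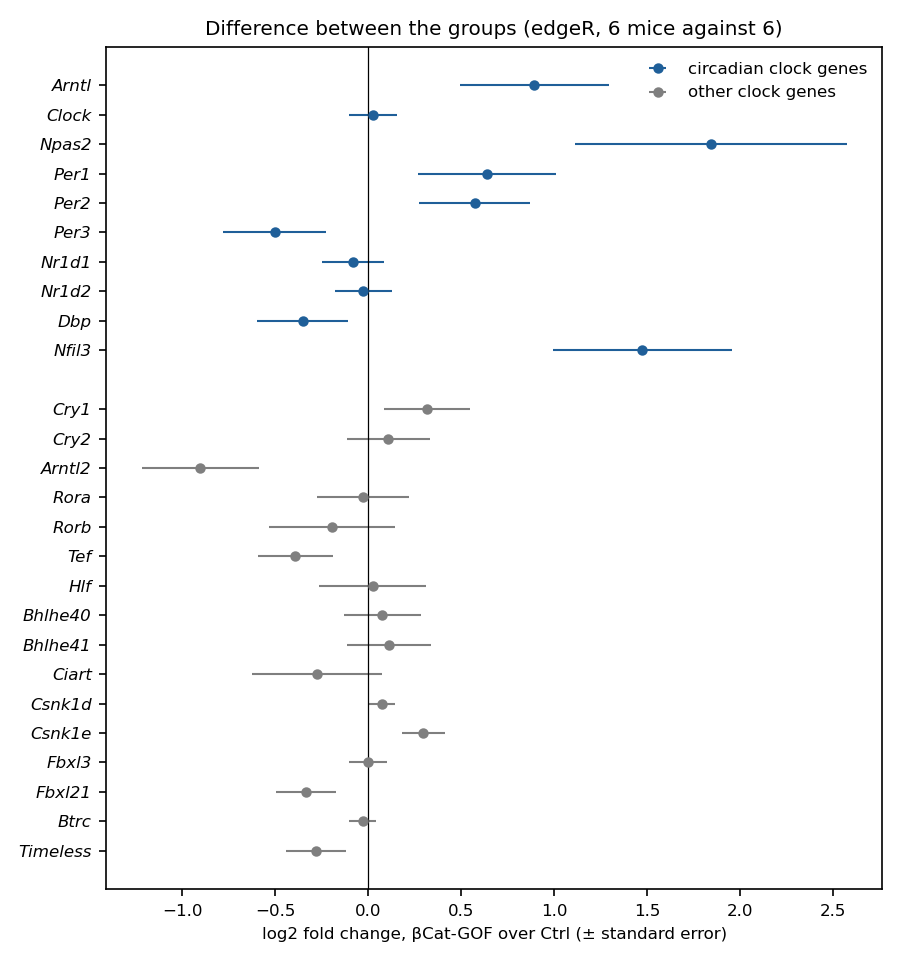
Log2 fold change of βCat-GOF over Ctrl with its standard error (edgeR, 6 mice against 6), for the 10 clock genes in blue and 16 other genes of the clock in grey; the vertical line marks no difference. *Npas2*, *Nfil3* and *Arntl* lie farthest to the right with wide errors, and *Clock*, *Nr1d1* and *Nr1d2* lie at the line.

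The clock genes spread further between βCat-GOF mice than between controls, given here as a description with no test. Log2 CPM is the log2 of counts scaled to the library total, adjusted by 1 TMM factor per mouse. Its SD was larger in βCat-GOF than in Ctrl for 9 of 10 members, *Nr1d1* being the exception. Of all genes, 70.0% were also more variable in βCat-GOF. The median ratio of the SDs was 2.18 for the members and 1.33 over all genes. Mouse 1387-8 was the highest or lowest of all 12 mice for 6 of 10 members (13.5% of all genes), and mouse 1369-2 the highest of 12 for 4 of 10 (8.35%). Counted against the range of the 6 controls, 1387-8 lay outside it for 9 of 10 members (41.1% of all genes) and 1369-3 for 5 (47.7%). Mouse 1369-2 lay outside it for 5 (40.2%), 1369-8 for 4 (52.9%), 1369-4 for 3 (47.6%) and 1369-2ear for 1 (40.8%). Over all genes the library of 1387-8 did not stand apart, since its median Spearman correlation with the other βCat-GOF libraries, 0.982, was the second highest of the 6. Its label begins with a different number from those of the other βCat-GOF mice, and the sources do not say what the number stands for.

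**Figure D2:**
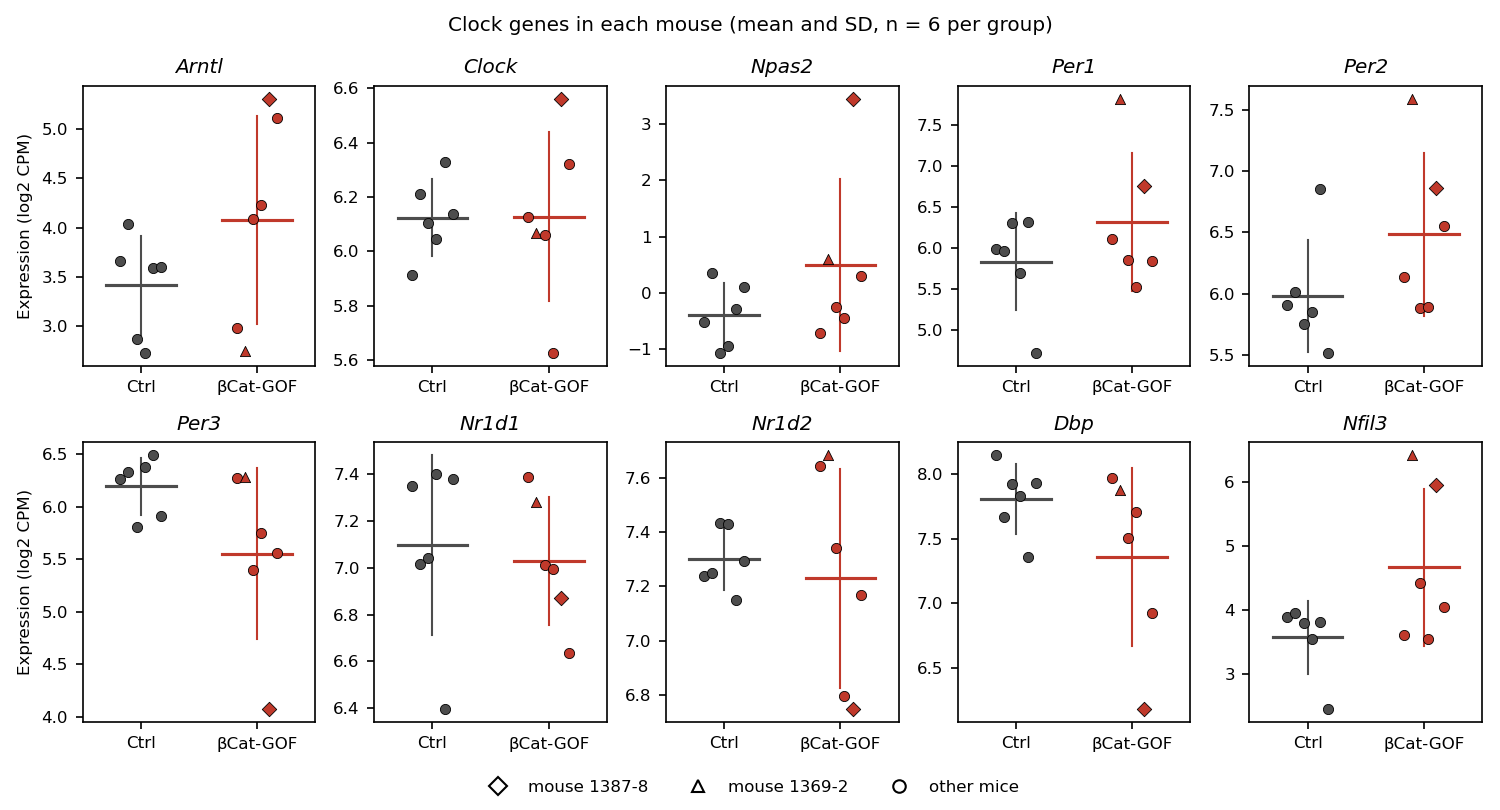
Expression of the 10 clock genes in each mouse, as log2 CPM, with the group mean (horizontal line) and SD (vertical line) of 6 mice per group; each panel has its own axis. The diamond, mouse 1387-8, is at the top for *Arntl*, *Clock* and *Npas2* and at the bottom for *Per3*, *Nr1d2* and *Dbp*, and the triangle, mouse 1369-2, is at the top for *Per1*, *Per2*, *Nr1d2* and *Nfil3*.

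*Arntl* (ENSMUSG00000055116, chr7:113207465-113314126, plus strand of mm10) encodes the shared partner of CLOCK and NPAS2. It ranged from 130.2 to 323.4 normalized counts in controls (median 239.2) and from 132.6 to 797.5 in βCat-GOF (median 358.4). The groups overlapped, with mice 1369-2 and 1369-2ear among the low controls. Mice 1387-8 and 1369-3, at 797.5 and 702.7, were highest, and 1369-8 and 1369-4, at 373.2 and 343.6, were also above every control. On the log2 scale βCat-GOF exceeded Ctrl by 0.89 ± 0.40 (standard error; edgeR adjusted p = 0.229). *Clock* (ENSMUSG00000029238, chr5:76209868-76304792, minus strand), which encodes the usual partner of ARNTL and is the least rhythmic of the loop in most organs, ranged from 1212 to 1597 in controls (median 1395) and from 985.3 to 1910 in βCat-GOF (median 1362). The means were close (log2 fold change 0.03, SE 0.13, adjusted p = 0.935), but the lowest mouse, 1369-8, and the highest, 1387-8, were both βCat-GOF.

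*Npas2* (ENSMUSG00000026077, chr1:39193731-39363236, plus strand), the alternative partner, was nearly silent in most glands. It had 7.62 to 23.3 normalized counts in controls (median 13.3) and 10.05 to 28.3 in 5 βCat-GOF mice, but 218.8 in 1387-8, which was 15.4 times the control mean. The difference of 1.84 on the log2 scale (SE 0.73, adjusted p = 0.177) was 0.33 without that mouse. *Npas2* also had the fewest reads of the members, between 8 and 222 per library, so its low values carry the largest counting error.

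Among the repressors, *Per1* and *Per2* did not follow *Per3*. *Per1* (ENSMUSG00000020893, chr11:69095217-69109960, plus strand) ranged from 528.0 to 1586 normalized counts in controls (median 1264) and from 922.1 to 4539 in βCat-GOF (median 1272). *Per2* (ENSMUSG00000055866, chr1:91415982-91459324, minus strand) ranged from 915.0 to 2298 in controls (median 1175) and from 1183 to 3847 in βCat-GOF (median 1640). For both genes 1369-2 was the highest mouse, at 3.75 and 2.91 times the control mean, 1387-8 came second at 1.81 and 1.78 times, and the other 4 βCat-GOF mice lay within the range of the controls. The log2 fold changes were 0.64 for *Per1* (standard error 0.37, adjusted p = 0.351) and 0.57 for *Per2* (standard error 0.30, adjusted p = 0.295). Without 1369-2 they were 0.18 and 0.28, and without both mice -0.06 and 0.10.

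*Per3* (ENSMUSG00000028957, chr4:151003652-151044665, minus strand) ranged from 1120 to 1793 in controls (median 1568) and from 338.1 to 1556 in βCat-GOF (median 1015). Here 4 of 6 βCat-GOF mice (1369-4, 1369-8, 1369-3 and 1387-8) were below every control, and 1387-8 was lowest at 0.228 times the control mean. Mice 1369-2 and 1369-2ear were inside the control range. The estimated log2 difference was -0.50 (SE 0.28, adjusted p = 0.324), and -0.31 without 1387-8.

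Neither REV-ERB gene passed the test. *Nr1d1* (ENSMUSG00000020889, chr11:98767932-98775333, minus strand) ranged from 1674 to 3365 in controls (median 2965) and from 2025 to 3271 in βCat-GOF (median 2589). All 6 βCat-GOF mice lay inside the control range, the only member for which this held, and the log2 difference was -0.08 (SE 0.17, adjusted p = 0.819). Its exons are overlapped over 8.55% of their length by *Thra* on the other strand, and no source used here says that strand was used in counting. *Nr1d2* (ENSMUSG00000021775, chr14:18204054-18239127, minus strand) held to between 2824 and 3472 in controls (median 3092), the tightest of the members, and spread from 2173 to 4114 in βCat-GOF (median 3118). Mice 1369-2 and 1369-2ear were above every control and 1387-8 and 1369-8 below every control, so that the deviations cancelled in the mean (log2 fold change -0.03, standard error 0.15, adjusted p = 0.946).

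*Dbp* (ENSMUSG00000059824, chr7:45705088-45710203, plus strand), the D-box activator and commonly the output with the widest daily swing, ranged from 3257 to 5724 in controls (median 4708) and from 1464 to 4910 in βCat-GOF (median 3935). Mice 1387-8 and 1369-3, the same 2 mice that were highest for *Arntl*, were below every control at 0.321 and 0.543 times the control mean, and the other 4 were inside the control range. On average βCat-GOF was below Ctrl, with a log2 difference of -0.35 (SE 0.25, adjusted p = 0.445) that was -0.19 without 1387-8. *Sphk2* on the other strand overlaps 18.0% of the *Dbp* exons. *Nfil3* (ENSMUSG00000056749, chr13:52967209-52981073, minus strand), the D-box repressor, ranged from 107.6 to 305.1 in controls (median 277.5) and from 232.5 to 1709 in βCat-GOF (median 384.5). It was above every control in 4 βCat-GOF mice, most in 1369-2 and 1387-8, at 6.87 and 5.00 times the control mean. Its log2 fold change of 1.47 had the smallest adjusted p of the members (standard error 0.48, adjusted p = 0.110). It passed, at 1.66 with an adjusted p of 0.0496, when mouse 1369-2ear was left out, and was 0.31 without 1369-2 and 1387-8.

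Counts were also scaled to exon length and the same adjusted library total (RPKM, reads per kilobase of exon scaled to that total). By RPKM, control adrenals held most *Dbp*, at 76.1 ± 13.7, then *Nr1d1* at 45.7 ± 10.7 and *Nr1d2* at 29.2 ± 2.3 (SD, n = 6). *Per2* (11.3 ± 4.27), *Per1* (10.8 ± 3.52), *Per3* (7.74 ± 1.4), *Nfil3* (6.15 ± 1.83) and *Clock* (5.09 ± 0.50) followed, with SDs that overlapped those of their neighbours. *Arntl* (1.48 ± 0.484) and *Npas2* (0.149 ± 0.0655) were lowest, each apart from the gene above it by more than the SDs.

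A ratio of 2 genes that peak in opposite phase, taken within a mouse, cancels library size and differs with the time of day at which a gland was taken. For *Arntl* over *Dbp*, the log2 ratio of controls ran from -5.12 to -3.64 (median -4.42), a 2.79-fold range, and that of βCat-GOF mice from -5.15 to -0.88 (median -3.46), a 19.3-fold range. Mice 1387-8 (-0.88) and 1369-3 (-1.82) stood above all others, 1369-4 (-3.43) and 1369-8 (-3.48) just above the highest control, and 1369-2 (-5.15) was lowest of 12 with 1369-2ear (-5.0) among the low controls. The group means differed by 1.12, which an exact permutation test over mice did not separate (two-sided p = 0.18, adjusted over the 4 ratios 0.289).

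The other 3 ratios shared no gene with it and placed 1387-8 first of 12 as well. For *Npas2* over *Nr1d1* the controls lay between -8.65 and -6.78 and βCat-GOF between -8.35 and -3.44, with 1387-8 highest and 1369-3 second at -6.46. *Clock*, the least rhythmic of the loop in most organs, was set over *Nr1d2*. For this ratio the controls lay between -1.38 and -0.82 and βCat-GOF between -1.62 and -0.19, where 1387-8 alone was above the controls. The differences of the means, 1.02 and 0.07, did not pass (exact permutation test, p = 0.216 and 0.792, adjusted 0.289 and 0.792), and without 1387-8 they were 0.37 and -0.11. *Nfil3* over *Per3* ran from -3.49 to -2.02 over controls and from -2.68 to 1.88 over βCat-GOF mice, and was above every control in 4 of 6 βCat-GOF mice. The mean was higher by 1.74 (standard error 0.71, exact permutation test p = 0.0216), which did not pass after adjustment over the 4 ratios (0.0866). Without 1387-8 it was higher by 1.19 (exact permutation test p = 0.0433, adjusted 0.173), and *Arntl* over *Dbp* by 0.63 (exact permutation test p = 0.359). The smallest p that 6 mice against 6 allow is 0.00216.

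**Figure D3:**
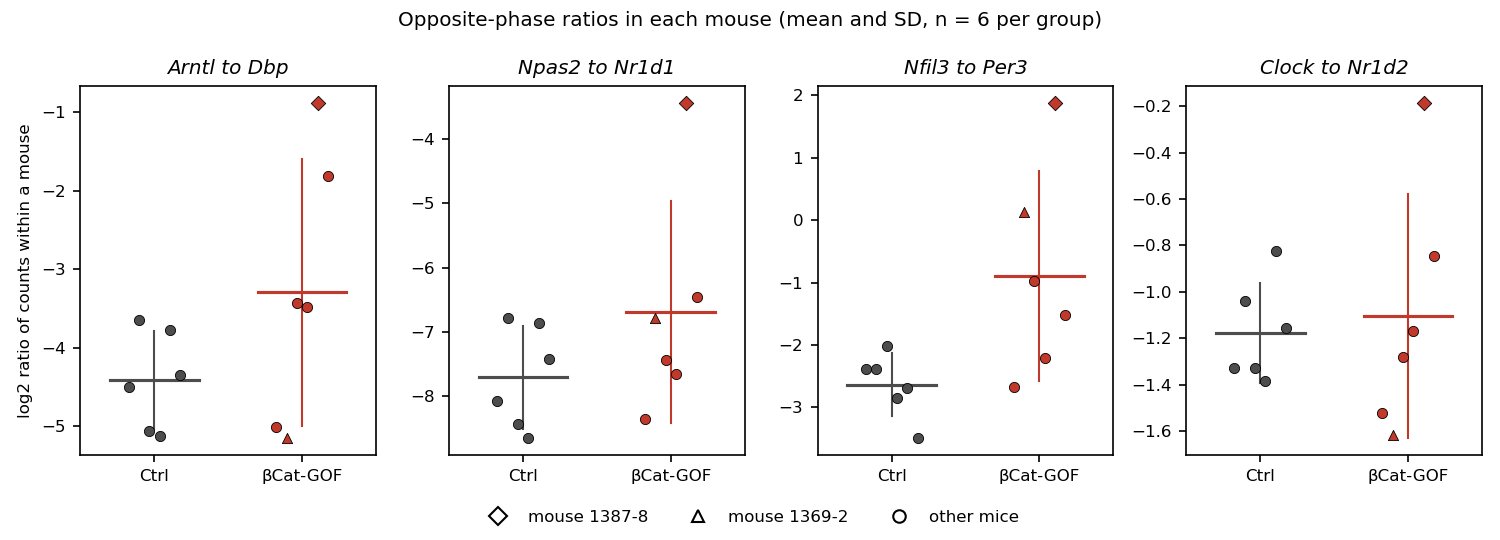
Log2 ratio of counts of 4 pairs of clock genes taken as opposite in phase, 1 point per mouse. The mean (horizontal line) and SD (vertical line) are of 6 mice per group, and each panel has its own axis. Mouse 1387-8, the diamond, is highest in all 4 panels, while mouse 1369-2, the triangle, is lowest for *Arntl* to *Dbp* and *Clock* to *Nr1d2* and second highest for *Nfil3* to *Per3*.

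All 4 ratios spread further over βCat-GOF mice than over controls, and no difference of group means passed after adjustment. For *Arntl* over *Dbp* the βCat-GOF mice ran from 1369-2 and 1369-2ear, placed with the lowest controls, to 1369-3 and 1387-8. An hour of collection that differed between mice and a difference in the clock itself cannot be told apart from these values. In 1387-8 the summed zona fasciculata markers (*Cyp11b1* and *Mc2r*) were at 8867 CPM, below the 12200 to 15450 of the controls. Mouse 1369-2, lowest of 12 for *Arntl* over *Dbp*, was also below the controls, at 8914 CPM. The sum is mostly *Cyp11b1*, and *Mc2r* alone, at 9193 normalized counts in 1387-8, was inside the controls' 8255 to 10150. The summed medulla markers of 1387-8 were at 4850 CPM, inside the controls' 3843 to 11780. The part of these cell types in its clock values was not tested.

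Pairs of members were compared across the 12 mice as deviations from their group means in log2 CPM, for 6 pairs in all. *Arntl* and *Dbp* moved in opposition (Pearson r = -0.773, permutation p = 0.00224, adjusted over the 6 pairs 0.00672, Spearman rho = -0.678, permutation p = 0.0183, adjusted 0.0548), and r was -0.674 without the 2 mice farthest from the median of *Arntl*. Without 1387-8 r was -0.694, and its permutation p adjusted over the 6 pairs, 0.0517, no longer passed 0.05. Within the βCat-GOF mice r was -0.883 (exact permutation p = 0.0139, n = 6) and within controls -0.203 (exact permutation p = 0.739, n = 6), a difference that was not tested. *Arntl* and *Nr1d1* gave r = -0.569 and rho = -0.594 (permutation p = 0.0518 and 0.0456, adjusted 0.0621 and 0.0887), -0.924 within βCat-GOF, -0.248 within controls, and -0.411 without the 2 farthest mice. *Per1* and *Per2* moved together (r = 0.830, permutation p = 0.00053, adjusted 0.00318, rho = 0.727, permutation p = 0.00941, adjusted 0.0548), with 0.933 within βCat-GOF, 0.617 within controls and 0.698 without the 2 farthest mice.

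*Dbp* and *Per3* gave r = 0.757 (permutation p = 0.00966, adjusted 0.0193) but rho = 0.490 (permutation p = 0.110, adjusted 0.133). The sign differed between the groups, with 0.933 within βCat-GOF and -0.556 within controls, and that difference was not tested. The value of r was 0.287 without 1387-8, and 0.570 without the 2 farthest mice, which are 1387-8 and the control 1367-7. *Arntl* and *Npas2* gave r = 0.602 and rho = 0.566 (permutation p = 0.0319 and 0.0592, adjusted 0.0478 and 0.0887), 0.552 within βCat-GOF, 0.905 within controls, 0.694 without the 2 farthest mice and 0.369 without 1387-8. *Nfil3* and *Dbp* gave r = -0.314 and rho = -0.280 (permutation p = 0.322 and 0.380, adjusted 0.322 and 0.380), -0.332 within βCat-GOF and -0.221 within controls. For this pair r was -0.703 without the 2 farthest mice, 1367-10 and 1369-2, and 0.089 without 1387-8.

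**Figure D4:**
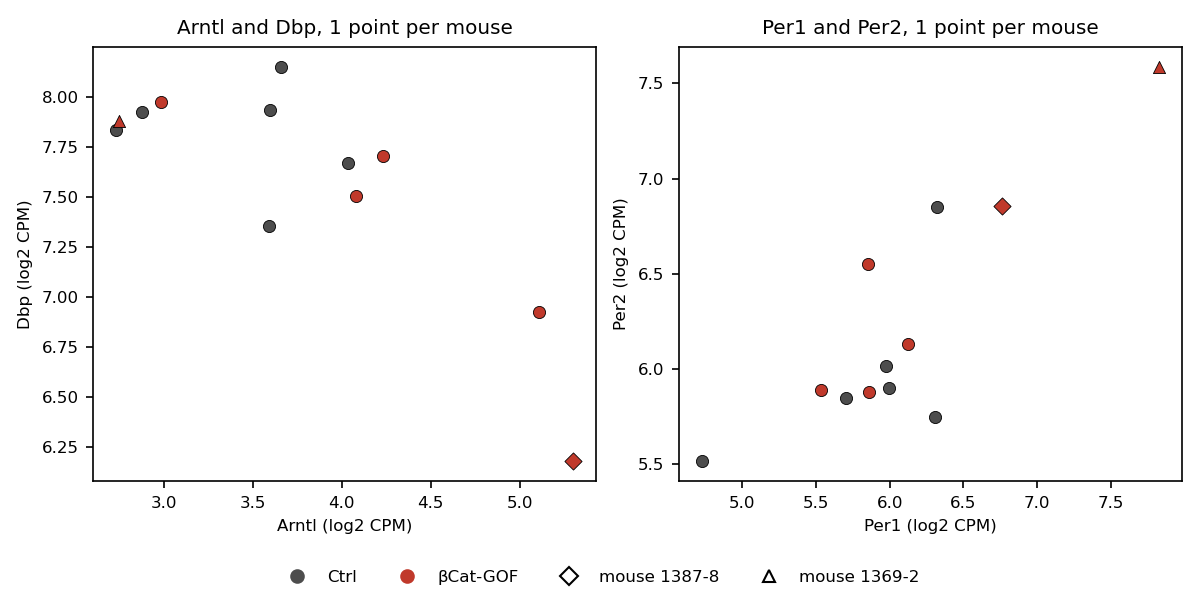
*Dbp* against *Arntl* (left) and *Per2* against *Per1* (right), both axes in log2 CPM, 1 point per mouse, grey for Ctrl and red for βCat-GOF. On the left the mice run from high *Dbp* and low *Arntl* to mouse 1387-8, the diamond, at the lower right; on the right mouse 1369-2, the triangle, lies alone at the upper end.

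Of 16 other genes of the clock, 0 passed an adjusted p of 0.05 in edgeR (3.68% of all genes) and 0 in DESeq2 (7.46%). An unadjusted edgeR p under 0.05 was reached by 2, *Arntl2* and *Csnk1e*, where 20.4% of all genes reached that level. *Arntl2*, a low-abundance relative of *Arntl*, was at 44.5 ± 18.2 normalized counts over controls and 24.1 ± 9.12 over βCat-GOF mice (SD, n = 6; log2 fold change -0.90, standard error 0.32, edgeR adjusted p = 0.136). *Tef*, *Fbxl21* and *Cry1*, the next in size, had log2 fold changes of -0.39, -0.33 and 0.32 (adjusted p = 0.291, 0.262 and 0.466). *Csnk1e*, which encodes a kinase of PER proteins, had 0.30 (adjusted p = 0.171). Over the 16 the median log2 fold change was -0.02, with 7 above 0 and 9 below.

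*Tef*, a D-box activator of the same family as *Dbp*, held to between 4448 and 5306 normalized counts in controls and had 1495 in 1387-8 and 3595 to 4630 in the other βCat-GOF mice. Mouse 1387-8 was also the lowest of 12 for *Hlf* (268.1), the third member of that family, *Bhlhe41* (160.7), a repressor of E-box genes, and *Ciart* (12.8), a further repressor of the loop. *Cry2* was highest in 1369-2, at 2670 against at most 1530 in controls, as *Per1* and *Per2* were, and *Cry1* was highest in 1369-3 (519.0 against at most 271.7). These 6 genes are given because of their values in single mice.

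**Figure D5:**
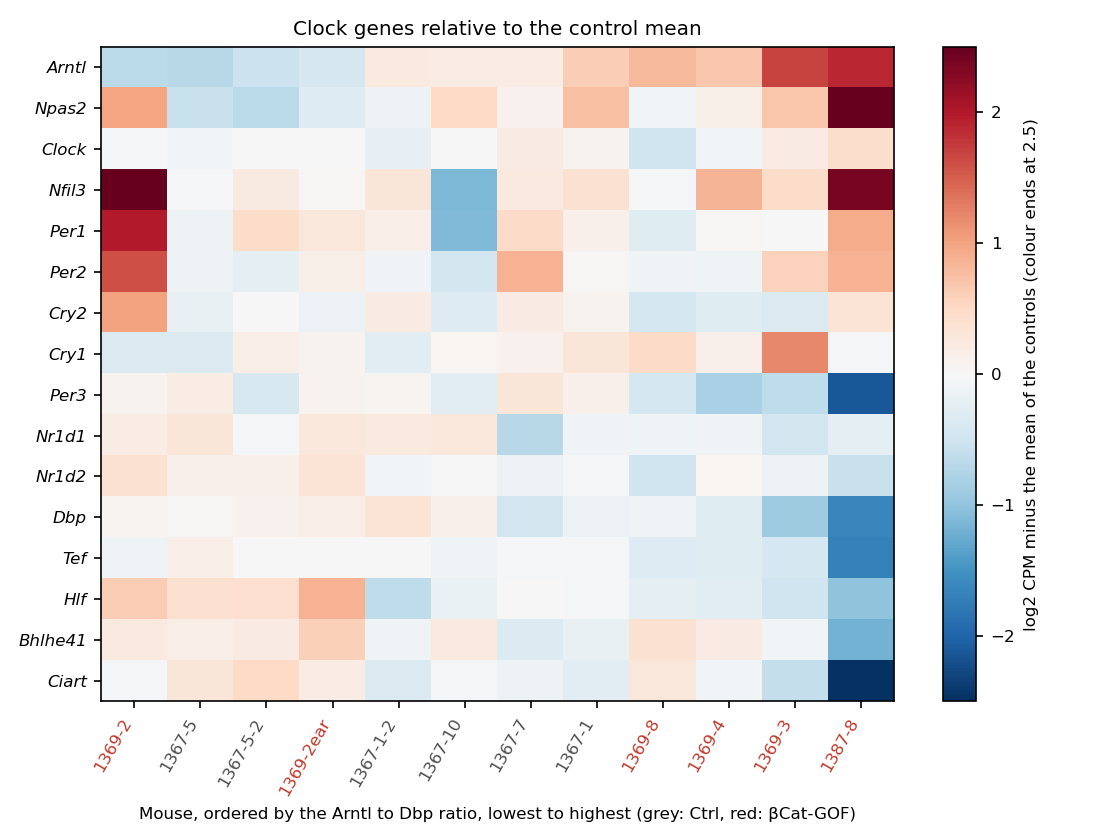
Log2 CPM of 16 clock genes minus the mean of the controls, red for higher and blue for lower, with mice ordered from the lowest *Arntl* to *Dbp* ratio on the left to the highest on the right (grey labels Ctrl, red labels βCat-GOF). The rightmost column, 1387-8, is red for *Arntl*, *Npas2* and *Nfil3* and blue for *Per3*, *Dbp*, *Tef*, *Hlf*, *Bhlhe41* and *Ciart*, and the leftmost, 1369-2, is red for *Nfil3*, *Per1*, *Per2* and *Cry2*.

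Over the 12 mice, as deviations from the group means, the *Arntl* to *Dbp* ratio was compared with 11387 other genes of base mean above 100, as a description. The highest correlations were those of *Dtx4* (r = 0.967), *Fgd3* (0.966), *Rab11b* (0.9385), *Psmd14* (0.869) and *G3bp1* (0.869), and the lowest those of *Wtip* (-0.897), *Trpt1* (-0.892), *Vmac* (-0.879), *Upp2* (-0.8785) and *Rufy3* (-0.876). None of these 10 passed an adjusted p of 0.05 between the groups. In all, 33 genes had r over 0.8 and 44 under -0.8. Among the latter were *Hlf* (-0.862), *Bhlhe41* (-0.834) and *Tef* (-0.813), 3 of the 13 other clock genes abundant enough to be compared, and *Cirbp* (-0.831) and *Rbm3* (-0.818), which encode cold-inducible RNA-binding proteins. Without 1387-8 the values were -0.792 for *Hlf*, -0.718 for *Bhlhe41* and -0.860 for *Tef*. *Cry1* had r = 0.463 with all mice and 0.851 without 1387-8. *Hlf*, *Bhlhe41*, *Cirbp*, *Rbm3* and *Cry1* were picked with these values in view. All of the values come from the same 12 libraries as the ratio.

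Of 9 clock-controlled outputs known from many organs, 0 passed in edgeR (3.68% of all genes) and 0 in DESeq2 (7.46%). An unadjusted edgeR p under 0.05 was reached by 2 of them, where 20.4% of all genes reached that level. These were *Coq10b* (log2 fold change 0.56, adjusted p = 0.147) and *Tspan4* (-0.34, adjusted p = 0.206). *Usp2*, *Lonrf3* and *Nampt* had log2 fold changes of 0.42, -0.39 and -0.36 (adjusted p = 0.558, 0.412 and 0.250). Of 4 adrenal outputs linked to the clock, 0 passed in either tool and 1 had an unadjusted edgeR p under 0.05 (20.4% of all genes). That was *Star*, the cholesterol carrier of steroid synthesis, with a log2 fold change of 0.49 (adjusted p = 0.190). *Cyp11b2*, *Mc2r* and *Hsd3b6* had -0.18, 0.16 and 0.15 (adjusted p = 0.820, 0.387 and 0.912).

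*Per1*, *Per2* and *Nfil3* were highest in the mouse that was also highest for most immediate early genes, which respond within minutes to cAMP and calcium. Of 10 such genes, 1 passed the test (3.68% of all genes). That was *Crem*, at 803.6 ± 101 normalized counts over controls and 2932 ± 1335 over βCat-GOF mice (log2 fold change 1.85, standard error 0.33, edgeR adjusted p = 0.00701). All 10 had a log2 fold change above 0 (7481 of all 14953 genes), and 8 had an unadjusted edgeR p under 0.05 (20.4% of all genes). DESeq2 called 4, namely *Crem*, *Fosb*, *Dusp1* and *Nr4a2* (7.46% of all genes). Mouse 1369-2 was the highest of 12 for 6 of the 10 (8.35% of all genes). It had 30320 normalized counts of *Nr4a1* (controls 875.8 to 8642), 5357 of *Nr4a2* (82.4 to 336.9) and 1660 of *Fosb* (11.7 to 45.0). Mouse 1387-8 was second for the summed list, at 1612 CPM against 2913 in 1369-2 and 186.9 to 719.5 in controls. Most of its sum was *Nr4a1*, at 20230 normalized counts. Mouse 1387-8 was outside the control range for 6 of the 10 genes (41.1% of all genes) and inside it for *Fos*, *Egr1*, *Junb* and *Dusp1*. By the same count 1369-2ear was outside for 10 of 10 (40.8% of all genes), with *Crem* below the controls. Mouse 1369-2ear had the highest *Fos*, *Egr1* and *Dusp1*, with *Per1* at 1360 and *Nfil3* at 236.5, both inside the control range. The part of these genes' induction in the *Per1*, *Per2* and *Nfil3* values was not tested. Of 5 glucocorticoid-responsive genes 0 passed in edgeR (3.68% of all genes) and 2 had an unadjusted edgeR p under 0.05 (20.4%). All 5 had a log2 fold change above 0 (7481 of all 14953 genes). The largest was that of *Fkbp5* (0.49, edgeR adjusted p = 0.0961), the 1 gene of the list called by DESeq2 (adjusted p = 0.0381).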

How the data were processed

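RNA of whole adrenals trimmed of fat (RIN above 7 in the study's methods) was sequenced. The authors aligned reads to mm10 with STAR, tallied reads with a unique alignment over each gene in featureCounts 1.4.4 and deposited raw counts for 12 mice. They also deposited a normalized signal, which equals the counts divided by 1 factor per mouse. The normalized counts printed here are not that signal. They are the raw counts divided by DESeq2 size factors computed anew, 1 per mouse. Columns without a sample numbered 0. Counts were joined to gene names by Ensembl identifier, and gene positions and exon lengths came from GENCODE M21. The main test was edgeR 4.0.16 in R 4.3.3 (TMM, filterByExpr, quasi-likelihood, group as the only term), with DESeq2 1.42.0 as an alternative. The fits were tested on simulated counts. Depth was 13484675 to 25625494 counts, and 3 counts equal 0.117 to 0.223 CPM. The log2 CPM used a prior count of 2. Apart from the CPM of 3 counts, library totals were taken over the genes tested and multiplied by the TMM factor of each mouse. The difference of group means of each log2 ratio was tested by exact permutation. Correlations over 12 mice were tested by 100000 random permutations, and those within a group of 6 by exact permutation. The 10 members and the gene lists were chosen with earlier results of these data known. All members were named, with the genes of each list past the test, up to 4 with the largest log2 fold change by size from the clock and output lists, and the 5 genes most and 5 least correlated with the *Arntl* to *Dbp* ratio; any other gene was named with its values in view. A gene of the list of other clock genes is not reported here and entered none of its counts. The labels number no replicates. In 3 pairs of samples the labels begin alike, and no source used here explains the labels. The study's figure legend counts 6 and 6 female mice, so each sample was counted as a mouse. The counts within these pairs differed by more than sampling noise (chi-square per degree of freedom 41.9 to 45.8, other pairs of a group 16.8 to 145), which 2 glands of 1 mouse could also give. p-values measure the spread between these mice.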

Additional observations from a re-analysis of the deposited data

Results flagged for a closer look

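In a group of 6 mice, a mouse was singled out where its gap to the nearest other mouse took up more of the group's range than Dixon's 95% critical value allows. Of 60 series tested, over the 10 clock genes, 16 other genes of the clock and the 4 ratios, 5 had such a mouse, and chance gives about 1 in 20. In βCat-GOF these were *Npas2* at 218.8 normalized counts and *Tef* at 1495, both in mouse 1387-8, and *Per1* at 4539 in mouse 1369-2. In controls they were *Per2* at 2298 in mouse 1367-7 and *Rora* at 6777 in mouse 1367-1. No cause was tested.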

How the results depend on the processing

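The direction of the log2 fold change held for 7 of the 10 clock genes under every alternative that gave a value, the exceptions being *Clock*, *Nr1d2* and *Per1*. *Clock* ranged from -0.06 to 0.11 with 1 mouse left out (-0.003 without control 1, -0.015 without βCat-GOF 6), and was -0.012 without the 3 mice whose label repeats a stem and -0.063 without 1387-8. *Nr1d2* ranged from -0.11 to 0.067 with 1 mouse left out (0.0098 without control 3, 0.049 without βCat-GOF 4) and was 0.067 without 1387-8. Leaving out 1369-2 and 1387-8 together, chosen after seeing the data, gave -0.060 for *Clock*, -0.056 for *Per1* and a median of -0.04 over the 10. The number of clock genes called was 0 to 1 with 1 mouse left out, *Nfil3* without 1369-2ear. Of the 16 other clock genes 0 were called under each of the 20 alternatives run. *Npas2* gave no value with a minimum of 10 counts in every mouse. The *Nfil3* to *Per3* ratio difference was 0.79 without both mice (exact permutation p = 0.0952), and *Clock* to *Nr1d2* was -0.110 without 1387-8, -0.028 without both, and -0.11 to 0.18 with 1 mouse left out. Among correlations, *Arntl* with *Dbp* was -0.203 within controls, *Arntl* with *Nr1d1* -0.924 within βCat-GOF, and *Arntl* with *Npas2* 0.552 within βCat-GOF and 0.369 without 1387-8. *Dbp* with *Per3* was -0.556 within controls and 0.287 without 1387-8, *Nfil3* with *Dbp* 0.089 without 1387-8, and *Per1* with *Per2* 0.617 within controls. The causes were not tested beyond the mice named. No paired analysis was possible because the labels give the mice no shared replicate numbers.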

Other observations

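Cell-type markers and the clock genes were set side by side per mouse, without a test. Mouse 1369-2 was the highest for *Per1*, *Per2* and *Nfil3*. Its summed zona fasciculata markers were at 8914 CPM, below the 12200 to 15450 of the controls (βCat-GOF 7956 to 17930). Its summed zG markers were at 2148 CPM, above the 987.1 to 1360 of the controls (βCat-GOF 1113 to 2275). Mouse 1387-8 had 8867 CPM of the zona fasciculata markers and 1679 CPM of the zG markers. The zG sum is mostly *Dab2* in both mice. *Cyp11b2* alone was at 9254 normalized counts in 1369-2, above the controls' 2987 to 8035, and at 3192 in 1387-8, inside them. The zona fasciculata sum is mostly *Cyp11b1*, and *Mc2r* alone was inside the control range in 1369-2 and in 1387-8 (9766 and 9193 normalized counts). The *Arntl* to *Dbp* log2 ratios of 1369-2 and 1387-8 were -5.15 and -0.88. The mice were chosen after their values were seen, and the part of these cell types in the clock genes was not tested. Of 4 macrophage markers, 2 passed the test, both lower in βCat-GOF (*Itgax* and *Adgre1*), where 3.68% of all genes passed. The others, *Cd68* and *Csf1r*, had log2 fold changes of -0.72 and 0.11 (edgeR adjusted p = 0.117 and 0.718).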
